A study of Mus musculus with 4 samples.

Results

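The 10 genes of the core circadian clock loop were followed in whole eyes of mice before and after light exposure. They were taken by symbol from the 22558 genes of the deposited table: the activators Arntl (also known as Bmal1), Clock and Npas2, the repressors Per1, Per2, Per3, Cry1 and Cry2, and the REV-ERB repressors Nr1d1 and Nr1d2. All 10 were listed, and 9 had a mean of at least 1 FPKM (fragment counts divided by transcript length and sequencing depth) over the samples; Npas2, at a mean of 0.974, lay just below. Every sample was labelled as 6-week-old Abca4-/-Rdh8-/- mice, a genotype without a photoreceptor flippase for retinaldehyde and a photoreceptor retinol dehydrogenase, which clears all-trans-retinal slowly, and each condition was labelled as eyes of 3 mice. The 4 conditions were no light (control), and 3 h, 24 h or 7 days after light exposure, so no wild-type eye stands beside them. Transcripts of both targeted genes were measured, Abca4 at 56.3 FPKM in the control and 34.3 to 40.6 in the light samples, and Rdh8 at 10.5 and at 11.0 to 14.2. A value over the whole gene does not show whether the deleted part is missing, so these levels do not check the genotype. One FPKM value per gene and condition was deposited, so no difference below has a replicate check and no test was run. Neither the strength and length of the light nor the time of day of collection is stated in the sources used here, so an effect of light and an effect of the hour of collection cannot be told apart in any comparison.

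In the mammalian clock, the proteins of Arntl and Clock, or of Arntl and Npas2, bind as pairs to E-box sequences and switch on the Per, Cry and Nr1d genes. PER and CRY proteins return to the nucleus and inhibit those pairs, while the REV-ERB proteins bind ROR elements and repress Arntl and some other targets, which closes the loop over about a day. Photoreceptors, inner retinal neurons, cornea and other eye tissues each hold such a clock, and Per1 and Per2 are also known as genes that respond quickly to light and hormones.

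Promoter sequence was available in the RefSeq table (GRCm38.p6, whereas the deposited values belong to mm9) for 9 of the 10 genes, all but Per2, in 13 windows of 250 bases before to 50 after a start site. The motifs searched, on both strands, were the E-box CACGTG, the variant CACGTT, the D-box TTATGTAA or TTACGTAA bound by the factors of Dbp, Tef, Hlf and Nfil3, the cAMP response element TGACGTCA, its core TGACG, which lies within the full element, and the core AGGTCA of ROR and REV-ERB elements. The 250 bases before the start are shown for 5 of the repressor genes, the arm in which most of the higher values were found, with the matches in capitals. Per1 had 2 windows, and the upstream one is shown.
Per1 (chr11:69098699-69098948, plus strand): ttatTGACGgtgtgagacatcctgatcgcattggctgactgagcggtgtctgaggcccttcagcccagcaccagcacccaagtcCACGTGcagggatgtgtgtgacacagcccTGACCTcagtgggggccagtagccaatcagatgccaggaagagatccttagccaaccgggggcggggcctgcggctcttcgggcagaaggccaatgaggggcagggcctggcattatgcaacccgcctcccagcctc
Per3 (chr4:151044666-151044915, minus strand): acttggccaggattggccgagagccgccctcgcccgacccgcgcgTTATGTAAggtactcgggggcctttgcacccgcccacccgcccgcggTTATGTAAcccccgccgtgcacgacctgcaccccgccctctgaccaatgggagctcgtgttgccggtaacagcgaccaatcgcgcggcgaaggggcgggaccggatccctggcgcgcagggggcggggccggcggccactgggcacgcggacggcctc
Cry1 (chr10:85185055-85185304, minus strand): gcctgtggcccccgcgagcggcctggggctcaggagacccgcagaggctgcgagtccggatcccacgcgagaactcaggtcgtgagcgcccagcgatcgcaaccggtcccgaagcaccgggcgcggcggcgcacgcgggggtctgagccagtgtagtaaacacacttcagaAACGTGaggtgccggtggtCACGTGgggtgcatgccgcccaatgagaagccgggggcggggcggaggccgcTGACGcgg
Nr1d1 (chr11:98775378-98775627, minus strand): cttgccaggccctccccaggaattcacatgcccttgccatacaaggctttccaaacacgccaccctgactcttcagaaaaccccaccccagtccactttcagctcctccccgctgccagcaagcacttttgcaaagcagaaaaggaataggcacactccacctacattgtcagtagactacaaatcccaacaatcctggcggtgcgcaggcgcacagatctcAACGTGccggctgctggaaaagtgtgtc
Nr1d2 (chr14:18239107-18239356, minus strand): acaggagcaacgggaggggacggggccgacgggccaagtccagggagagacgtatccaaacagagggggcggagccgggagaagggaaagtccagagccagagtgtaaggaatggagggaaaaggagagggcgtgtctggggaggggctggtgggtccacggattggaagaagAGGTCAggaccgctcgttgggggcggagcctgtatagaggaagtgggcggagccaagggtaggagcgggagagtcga

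The E-box was present in 1 of the 2 windows of Per1, 166 bases before the start, and in the window of Cry1, 60 bases before it. It was present in 7.15% of all 32851 windows of the table. The variant CACGTT was read on the opposite strand in Cry1, 79 bases before the start, Nr1d1, 28 bases before it, and Cry2, 166 bases before it, against 4.68% of all windows. For Nr1d1 and Cry2, the bases directly after the start were not found in a GENCODE transcript of the gene. Positions in those windows are therefore less certain. Per3 carried the D-box at 205 and at 158 bases before its start, and 1.06% of all windows held it. The ROR core lay 77 bases before the start of Nr1d2 and 137 before that of Per1, in the window with the E-box. It was also in 1 of the 3 windows of Clock and, after the start, in 1 of the 2 of Arntl, against 16.3% of all windows. The core TGACG was found in Per1, Cry1 and Cry2 and in 20.8% of all windows, while the full cAMP response element was in none of the members' windows and in 1.79% overall. These matches describe letters in a short window and not binding.

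The clock genes rested on enough fragments for counting error to be small. Fragment numbers, read approximately from olfactory receptor genes seen in a single sample, ranged for the tested members from 309 (Per2 in the control) to 8329 (Nr1d2 at 7 days). On that scale the counting error of a member's level was at most 5.7%, except for Npas2, where it reached 15.0%. Such errors leave out the spread between animals, and the transcript lengths chosen push the fragment numbers upward. Lens markers summed to 73831 to 82509 FPKM in every sample, so lens was included, as the whole-eye label has it, although the protocol speaks of retinas. Rod markers summed to 11236, 9846, 7082 and 7576 FPKM at control, 3 h, 24 h and 7 days, with none of the 8 at 0. Skeletal muscle markers summed to 1492, 1672, 983 and 1283 FPKM, and microglia and macrophage markers to 58.6, 64.3, 61.9 and 138.3. Fewer cells of a type and less RNA per cell cannot be told apart in whole eyes. The 7-day sample held Y-linked transcripts (Ddx3y at 6.59 FPKM, against at most 0.00528 elsewhere). The female transcript Xist was at 47.2, 53.8, 53.8 and 37.1 FPKM in the control, 3 h, 24 h and 7-day samples. The 7-day sample thus held transcripts of both sexes, so in its comparisons sex cannot be told apart from time.

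The Per genes, whose proteins carry the repressive complex, were lowest in the control in all 3 cases and highest at 3 h. Per2 measured 2.40 FPKM without light, then 7.49 (3 h), 5.74 (24 h) and 4.84 FPKM (7 days). The control thus stood below every light sample, and the light samples lay in the order of their time after light. Relative to the control, the 3 h value was 3.12-fold (approximate 95% counting interval 2.74 to 3.55), the 24 h value 2.39-fold (2.11 to 2.72) and the 7-day value 2.02-fold (1.78 to 2.29). On the scale used for counting genes, log2 of (FPKM + 1), these were changes of 1.32, 0.99 and 0.78. Only the first was past 1 log2 unit, the size from which a gene counts as higher or lower here.

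Per1 measured 6.89 FPKM without light, then 14.6 (3 h), 10.95 (24 h) and 8.25 FPKM (7 days). It followed the same order as Per2 over a narrower span, and the 7-day value came nearest to the control. Relative to the control it stood at 2.12-fold (1.94 to 2.32), 1.59-fold (1.45 to 1.74) and 1.20-fold (1.09 to 1.31), and its log2 change at 3 h, 0.98, lay just under the counted size.

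Per3, a more weakly repressive paralogue, measured 10.5 FPKM without light, then 18.1 (3 h), 16.3 (24 h) and 17.1 FPKM (7 days). Unlike Per1 and Per2, it showed nearly equal values in the light samples. Its ratio to the control was 1.72 (1.61 to 1.83), 1.54 (1.45 to 1.65) and 1.62 (1.53 to 1.73).

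The Cry genes, whose proteins block the activator pairs directly, differed less. Cry1 measured 15.8 FPKM without light, then 20.97 (3 h), 17.2 (24 h) and 14.8 FPKM (7 days). Its high value was the 3 h sample, at 1.33 (1.23 to 1.44) times the control, and the interval of the 7-day ratio, 0.870 to 1.01, included 1. Cry2 was at 20.9, 21.6, 23.1 and 23.3 FPKM in the same order of samples, and its highest and lowest values differed by a ratio of 1.11. Its 3 h value was above the control by 0.04 log2 units, and at -0.09 once the samples were rescaled on genes outside the lens, muscle, erythroid and surface epithelium lists.

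**Figure D1:**
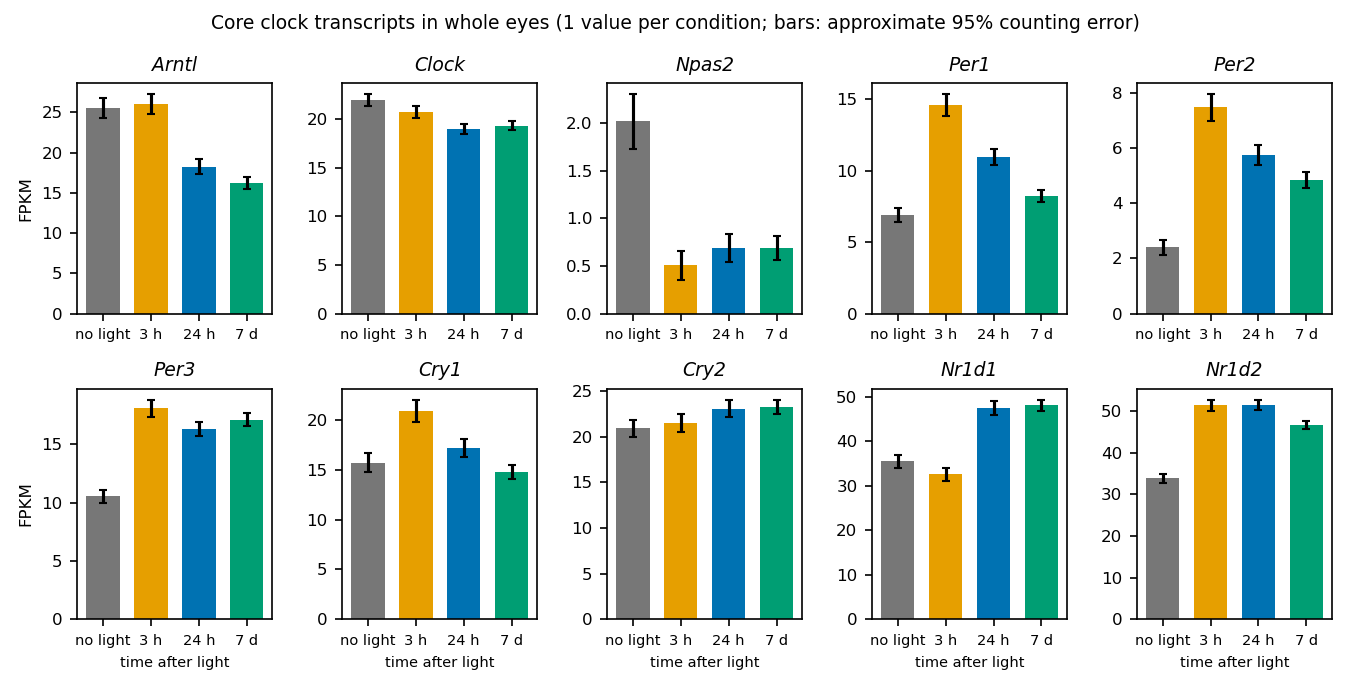
FPKM of each of the 10 clock genes in the control and at 3 h, 24 h and 7 days after light, 1 value per condition, with approximate 95% counting error bars that leave out the spread between animals. Per1, Per2, Per3 and Nr1d2 were lowest in the control (Per2 at 2.40 FPKM), Npas2 was highest there (2.02 FPKM), and Arntl was lower at 24 h and 7 days (18.3 and 16.3 FPKM) than in the other samples.

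The REV-ERB genes were the most abundant members per transcript length in every sample. Nr1d2 measured 33.9 FPKM without light, then 51.4 (3 h), 51.5 (24 h) and 46.7 FPKM (7 days). All light samples were above the control, by ratios of 1.52 (1.45 to 1.58), 1.52 (1.46 to 1.58) and 1.38 (1.33 to 1.43). Nr1d1 measured 35.5 FPKM without light, then 32.6 (3 h), 47.5 (24 h) and 48.1 FPKM (7 days). It divided the samples differently from Nr1d2, with the control and 3 h low and 24 h and 7 days high. The ratio of Nr1d1 to Nr1d2 was 1.05 without light, against 0.633, 0.921 and 1.03 in the light samples by time. In the GENCODE annotation Nr1d1 overlaps Thra, the thyroid hormone receptor alpha gene, on the opposite strand. Since strand-specific counting is not stated, fragments of the pair may not be separable, and Nr1d1 is uncertain to that degree. Thra itself was at 59.1, 50.7, 49.3 and 57.4 FPKM. Per3 overlaps Camta1 on its own strand (9.67, 13.01, 11.8 and 9.79 FPKM), and Cry2 and Arntl each overlap a noncoding gene on the opposite strand, which leaves the same doubt, and Clock and Npas2 span processed pseudogenes.

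Among the activators, Npas2 showed the widest ratio of any member. It measured 2.02 FPKM without light, then 0.505 (3 h), 0.685 (24 h) and 0.690 FPKM (7 days). The control stood above the light samples, which were alike within counting error. By time after light, its level was 0.25 (0.181 to 0.347), 0.339 (0.262 to 0.440) and 0.342 (0.271 to 0.432) of the control. These values rest on about 189, 45, 82 and 112 fragments. Being below the filter on the mean, Npas2 was not among the genes counted, and its log2 changes of -1.0, -0.84 and -0.84 understate the ratios because 1 was added to each value.

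Arntl, the usual partner in both activator pairs, measured 25.5 FPKM without light, then 26.01 (3 h), 18.3 (24 h) and 16.3 FPKM (7 days). The control and 3 h samples were alike and the later samples were lower, the reverse of the division seen in Nr1d1. By time, its level was 1.02 (0.952 to 1.09), 0.715 (0.668 to 0.767) and 0.637 (0.596 to 0.681) of the control. The log2 change at 3 h, 0.03, became -0.11 with the same rescaling and -0.01 when that rescaling used protein-coding genes alone. Of the 8 rod markers, 6, 7 and 8 lay below their unlit level by time. Of all tested genes, 54.1%, 51.3% and 50.7% lay above theirs. The summed levels of the rod markers were 0.876, 0.630 and 0.674 times the control, and their part in the values of Arntl was not tested. Clock itself was at 21.99, 20.8, 19.1 and 19.4 FPKM, a span of 1.15-fold.

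**Figure D2:**
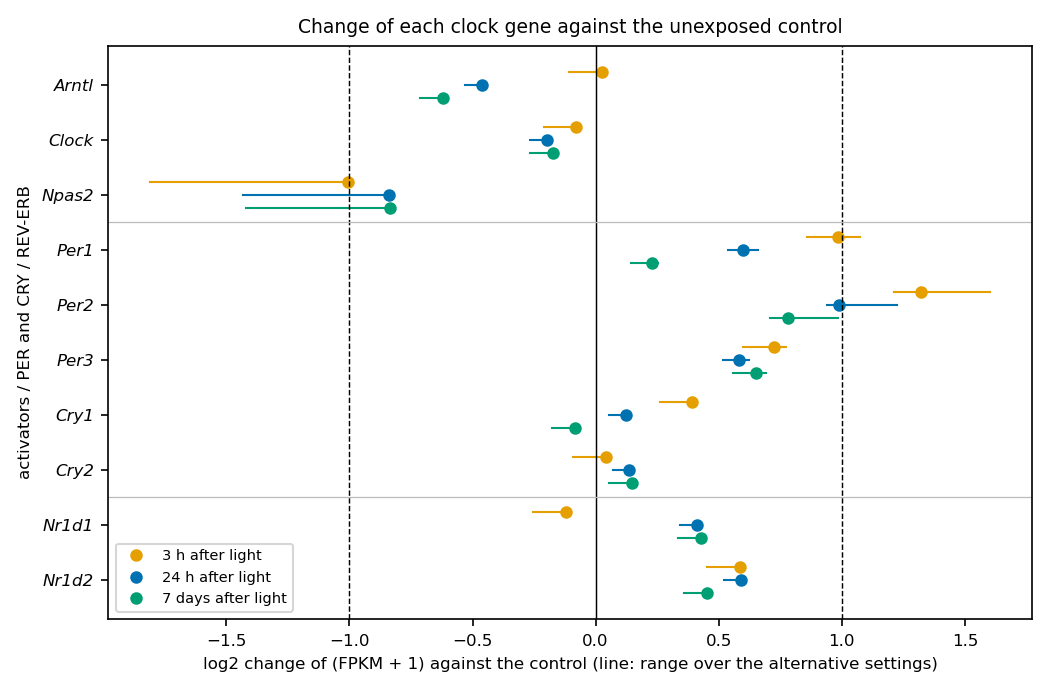
Log2 change of (FPKM + 1) against the control for each clock gene at 3 h, 24 h and 7 days after light; dots are the values as reported, lines their range over the alternative settings, and dashed lines the counted size of 1 log2 unit. Per2 at 3 h (1.32) is the only tested member past the size, and Per1 at 3 h (0.98) and Per2 at 24 h (0.99) lie at its edge.

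Counted at 1 log2 unit, 1 of the 9 tested members, Per2, was higher at 3 h, against 0.55% of the 14194 genes that passed the filter, termed tested here, and none was lower, against 0.24%. At 24 h none of the 9 was higher (background 0.747%) or lower (0.359%), and at 7 days again none was higher (0.409%) or lower (0.19%). A single gene past the size is too few to set against these shares. Each tested member was also placed among all tested genes by absolute change. At 3 h, 0.542% of tested genes had an absolute change at least as large as that of Per2, 0.803% as that of Per1, 1.54% as that of Per3 and 2.65% as that of Nr1d2, while 47.6% matched Nr1d1 and 87.5% matched Arntl. The 3 h shares of Cry1, Cry2 and Clock were 7.11%, 80.3% and 63.2%. At 7 days the shares were 0.881% for Per2, 1.26% for Per3, 1.39% for Arntl, 2.85% for Nr1d2 and 3.28% for Nr1d1, and 14.1% for Per1, 23.0% for Clock, 29.5% for Cry2 and 53.5% for Cry1. At 24 h they were 1.12% for Per2, 3.73% for Per1, 3.86% for Nr1d2, 3.99% for Per3, 6.69% for Arntl and 8.45% for Nr1d1, and 27.7% for Clock, 41.8% for Cry2 and 46.4% for Cry1.

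By arm, the PER and CRY genes had a median log2 change of 0.73 at 3 h, 0.58 at 24 h and 0.23 at 7 days, with 5, 5 and 4 of 5 above 0. The Nr1d genes had medians of 0.23, 0.50 and 0.44, with 1, 2 and 2 of 2 above 0. The activators, Npas2 included, had medians of -0.08, -0.46 and -0.62, with 1, 0 and 0 of 3 above 0. Over all tested genes the median was 0.02 at 3 h, 0.01 at 24 h and 0.00 at 7 days, with 54.1%, 51.3% and 50.7% above 0. All these comparisons share the control sample.

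**Figure D3:**
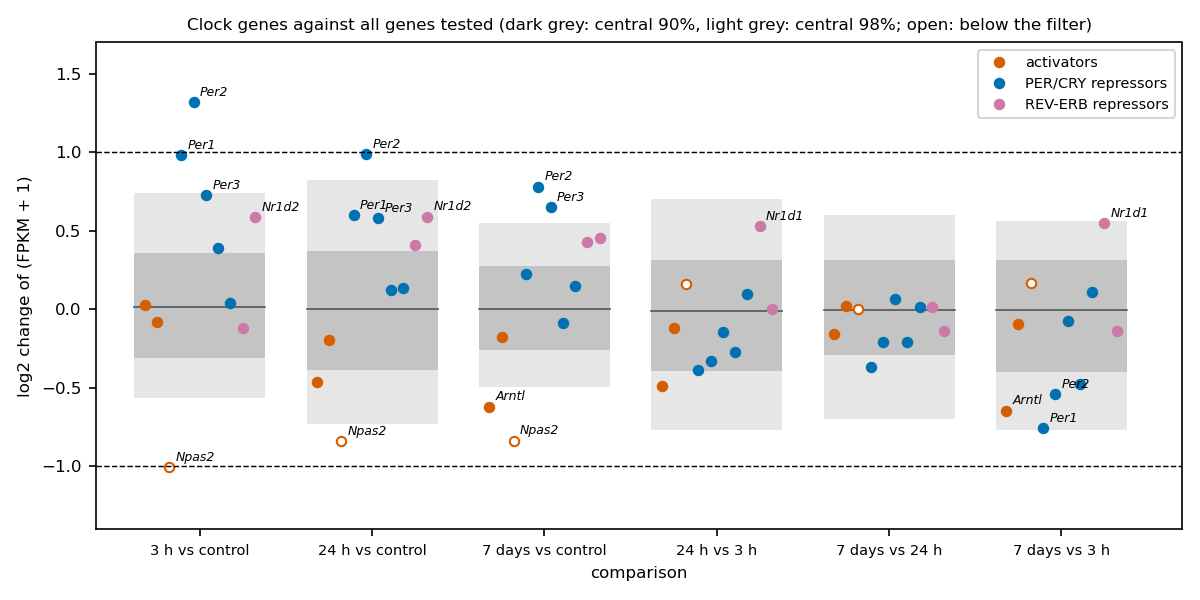
Log2 change of (FPKM + 1) of each clock gene in 6 comparisons, coloured by arm, over the central 90% (dark grey) and central 98% (light grey) of the 14194 genes tested; the open circle is Npas2, which was below the filter. Against the control, Per2 lies above the light band at each time, and in the comparison of 7 days with 24 h all members but Per1 (-0.37) lie within the dark band.

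Comparisons among the light samples leave the control out. From 3 h to 24 h, Per1, Per2 and Cry1 were lower (log2 changes of -0.39, -0.33 and -0.27), Arntl was lower (-0.49) and Nr1d1 higher (0.53). None of the 9 tested members was past the size, against 0.951% of all genes. From 24 h to 7 days the changes were small: Per1 stood at -0.37, Per2 and Cry1 at -0.21 each and Arntl at -0.16, and the other tested members lay between -0.14 and 0.07. None was past the size, against 0.81%. Between 3 h and 7 days, Per1 (-0.76), Arntl (-0.65), Per2 (-0.54) and Cry1 (-0.48) were lower and Nr1d1 (0.55) higher, with none past the size, against 0.824%. Npas2 in these comparisons had counting intervals that included a ratio of 1.

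The order of the members' levels, per transcript length, was similar across samples at its ends. Nr1d1 and Nr1d2 held the upper places and Per1, Per2 and Npas2 the lower ones in each sample. In the control, Nr1d1 (35.5 FPKM) and Nr1d2 (33.9), Clock (21.99) and Cry2 (20.9), and Per2 (2.40) and Npas2 (2.02) were neighbours that did not differ beyond counting error. At 3 h the same held for Cry2, Cry1 and Clock (21.6, 20.97 and 20.8 FPKM). At 24 h it held for each neighbouring pair along Clock, Arntl, Cry1 and Per3 (19.1, 18.3, 17.2 and 16.3), and at 7 days for Nr1d1 and Nr1d2 (48.1 and 46.7) and for Per3 and Arntl (17.1 and 16.3). Arntl moved from place 3 in the control to place 6 at 7 days.

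Ratios within a sample are free of the scaling between samples. The summed FPKM of the Per and Cry genes over that of the activators was 1.14 without light and 1.75, 1.93 and 1.88 in the light samples by time. The control had the lowest ratio. The same ratio for the Nr1d genes was 1.40, 1.78, 2.61 and 2.61. Per2 over Arntl was 0.0940 in the control and 0.288, 0.315 and 0.298 in the light samples. Npas2 over Clock was 0.0918 in the control and 0.0243, 0.0359 and 0.0357 in the others.

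Of 56 further genes in 6 lists around the loop, 55 were found, Asmt being the exception. The output genes had a median log2 change of 0.31 at 3 h, 0.62 at 24 h and 0.46 at 7 days. Above 0 were 7, 6 and 6 of these 7, against 54.1%, 51.3% and 50.7% of all tested genes. Dbp, a D-box activator, was at 40.6, 58.2, 86.2 and 82.4 FPKM and was counted as higher at 24 h and 7 days (log2 changes of 1.07 and 1.01), the only gene of the list past the size at either time, where 0.747% and 0.409% of all tested genes were counted as higher. Tef, its relative, was at 52.2, 84.5, 80.9 and 78.4 FPKM. Ciart, a repressor of the activator pair listed under its older symbol Gm129, was at 4.32, 6.06, 8.67 and 7.59 FPKM. Nfil3, the D-box repressor, was at 7.98, 8.51, 6.36 and 5.43 FPKM and was the only gene of the list below 0 at 24 h and 7 days. Of the E-box repressors, Bhlhe40 was at 26.0, 32.5, 40.4 and 36.2 FPKM and Bhlhe41 at 27.4, 33.9, 39.2 and 37.4.

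The ROR factors, which activate Arntl through the sites that REV-ERB proteins occupy, included no gene past the size. Rorb, the retinal form, measured 33.01 FPKM without light, then 25.2 (3 h), 22.2 (24 h) and 28.4 FPKM (7 days), while Rora was at 30.7, 33.8, 30.8 and 28.1. The 13 kinases and ligases that modify clock proteins had medians of 0.03, 0.02 and 0.00. Within 0.2 log2 units of the control lay 11, 12 and 13 of them, against 73.8%, 72.8% and 81.7% of all tested genes. The widest change of this list was that of Usp2, a deubiquitinase whose gene is a clock target, at 17.7, 32.9, 21.5 and 19.2 FPKM. The 11 partners and cofactors had medians of 0.16, 0.15 and 0.04 and no gene past the size. Arntl2, the paralogue of Arntl, was at 0.875, 1.23, 1.33 and 1.20 FPKM. The counting intervals of its ratios to the control were 0.994 to 1.98, 1.11 to 2.10 and 1.01 to 1.87 by time.

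Per1 is also known as a glucocorticoid target, and the 7 glucocorticoid-responsive genes had medians of 0.66, 0.20 and 0.03 by time after light. In the 3 h sample, 3 of 7 were counted as higher, against 0.55% of all tested genes: Tsc22d3 went from 29.0 to 122.5 FPKM, Fkbp5 from 6.15 to 19.4 and Zbtb16 from 2.0 to 6.80. Klf9 went from 33.3 to 53.2 FPKM at 3 h. At 7 days, Tsc22d3 was at 1.35, Zbtb16 at 1.24, Fkbp5 at 1.05 and Nr3c1 at 1.02 times the control. Klf9, Sgk1 and Ddit4 were then at 0.990, 0.941 and 0.794, and Per1 and Per2 at 1.20 and 2.02. The part of glucocorticoids in these values was not tested. Adipocyte markers moved in the 3 h sample as well. Their summed level was 20.3, 60.9, 32.7 and 19.0 FPKM, with 4 of 4 above the control at 3 h and none at 0. Surface epithelium markers summed to 3770, 4710, 4581 and 4723 FPKM, 5 of 5 above the control at 3 h and none at 0. Endothelial markers summed to 62.1, 38.1, 58.9 and 62.0 FPKM, with 4 of 4 below the control at 3 h and none at 0. Of all tested genes, 54.1% were above the control at 3 h. Stroma markers summed to 1617, 1267, 1223 and 1527 FPKM, with none of the 5 at 0 and 2 counted as lower at 3 h and 2 at 24 h (background 0.24% and 0.359%). Mueller glia markers, none of the 6 at 0, summed to 1392, 1436, 933.9 and 1568 FPKM. Above the control were 2, 2 and 6 of these 6 by time, against 54.1%, 51.3% and 50.7% of all tested genes. The part of these cell types in the clock values was not tested.

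**Figure D4:**
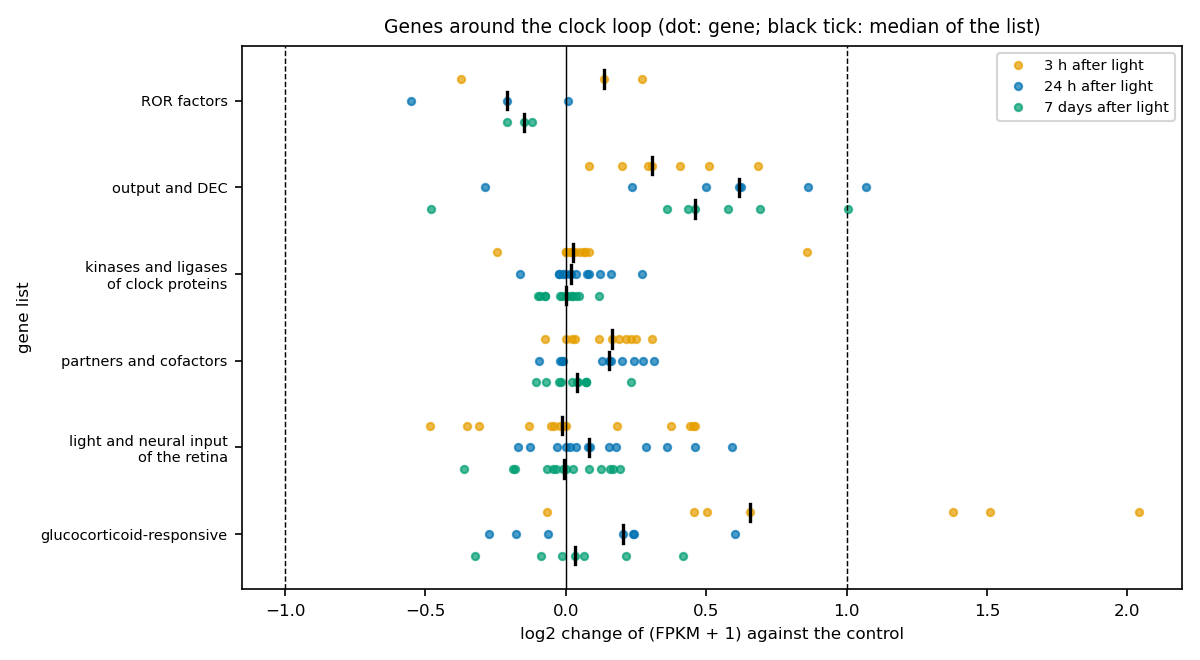
Log2 change of (FPKM + 1) against the control for genes of 6 lists around the clock loop, with 1 dot per gene and time and a black tick at each list's median; dashed lines mark 1 log2 unit. Output genes lie mostly above 0 at each time (medians 0.31, 0.62 and 0.46). Most kinases and ligases lie near 0, as most tested genes did, and the glucocorticoid-responsive list reaches 2.04 (Tsc22d3) at 3 h.

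Likeness of pattern was measured as the Euclidean distance between profiles of log2 (FPKM + 1) over the 4 samples, each centred on its mean. Among the members, Per3 and Nr1d2 were closest (0.18), and Per1 and Per2 were at 0.40. For Per2, the tested member with the widest range, the nearest of all genes with a mean of at least 5 FPKM were the histone gene Hist2h3b (0.21), whose near-identical copies make its values uncertain, the metallothionein gene Mt1 (0.30) and the basal keratin gene Krt14 (0.31). Mt1 was at 324.5, 794.1, 585.8 and 428.2 FPKM. For Arntl, a case chosen after its values were seen, they were Gucy2f (0.06), Ano2 (0.06) and Guca1b (0.11), all known from photoreceptors. Gucy2f, a photoreceptor guanylate cyclase, was at 24.8, 26.3, 18.1 and 16.7 FPKM. For Per3, likewise chosen afterwards, they were Tns4 (0.06), the output gene Tef (0.08) and the RNase P RNA gene Rprl3 (0.09). The nearest gene was Tdrd7 for Clock, Krt14 for Per1, Taf4a for Cry1, Ywhab for Cry2, Ccl3 for Nr1d1 and Dgat2 for Nr1d2. With 4 points, many genes share such a shape.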

How the data were processed

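Whole-eye RNA of 4 conditions was sequenced, with 1 deposited value per gene and condition. The deposited values are FPKM; they were made with Cuffdiff 2.2.1 and TopHat2 (version 2) on build mm9 after bcl2fastq 1.8.3, as the submitters' processing notes list, and with Cufflinks, per the labels' design text. Neither annotation nor scaling within Cuffdiff is stated in the sources used here, nor whether a value is a pool or a mean over 3 mice. FPKM summed to 626973, 680305, 660426 and 672004 in the control, 3 h, 24 h and 7-day samples, so very abundant transcripts can shift other genes.

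From these, log2 of (FPKM + 1) ratios were computed for 6 comparisons with Python 3.11.15, numpy 2.4.6 and pandas 2.3.3, over 14194 genes with a mean of at least 1 FPKM. A gene was counted at an absolute change of at least 1. Folds in the text are plain FPKM ratios. Approximate depth came from 15, 14, 18 and 20 olfactory receptor genes above 0 in a single sample. Each was taken as 1 fragment over its shortest GENCODE coding transcript. Fragment counts of a gene then used its longest coding transcript. Both choices of length push the counts upward and the intervals narrower. Intervals of 95% cover counting only. The change computation was tested on simulated data. The members, lists and rules were chosen with earlier results of these data known: all 10 members, any gene of the fixed lists, overlapping genes and the 3 nearest profiles of the tested member with the widest range could be named. Nearest profiles of the other tested members were added after their values were seen. Alternatives were another pseudocount, filter or counted size and 3 rescalings.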

Additional observations from a re-analysis of the deposited data

Results flagged for a closer look

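Nr1d1 moved in opposite directions against the same control, with a log2 change of -0.12 at 3 h, 0.41 at 24 h and 0.43 at 7 days, each beyond its counting error. With 1 value per condition this difference between times was not tested. An absolute change at least as large was found in 47.6%, 8.45% and 3.28% of all tested genes by time, so the 3 h change was of a common size. The overlap with Thra also leaves Nr1d1 uncertain.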

How the results depend on the processing

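The 21 main results were counts of members higher and lower in 6 comparisons and the medians of the 3 arms against the control. They held their value, within 1.5-fold for counts or the counting error for medians, under median-ratio rescaling and rescaling on protein-coding genes. A mean filter of 5 FPKM could not change them. It removed no tested member, the lowest mean being that of Per2 (5.12), and the medians used no filter. With a pseudocount of 0.1, 2 members were higher at 3 h (Per1 and Per2) and 1 at 24 h (Per2), and the share of all genes past the size in either direction was 1.13% and 1.66%, against 0.789% and 1.11% as reported. Without a filter, 1 was lower at 3 h (Npas2), with 0.519% of all genes past the size. With both changes together, a setting chosen after seeing the data, 2 were higher and 1 lower at 3 h, 1 higher and 1 lower at 24 h, and 1 lower at 7 days, with 2.04%, 2.27% and 1.36% of all genes past the size. With a counted size equal to 1.5-fold, 4 were higher at 3 h, 3 at 24 h and 2 at 7 days, while 1 was lower at 7 days against the control and 2 at 7 days against 3 h. That size also took in more of all genes, 2.69%, 3.94% and 1.59% against the control by time and 3.10% at 7 days against 3 h. Rescaling on genes outside the lens, muscle, erythroid and surface epithelium lists shifted the light samples against the control by -0.14, -0.07 and -0.10 log2 units at 3 h, 24 h and 7 days. The 3 h medians became -0.21 for activators, 0.60 for PER and CRY genes and 0.10 for Nr1d genes, and the Nr1d medians at 24 h and 7 days 0.43 and 0.35. No member past the size changed sign under any of these settings, while 8 smaller changes of members, each under 0.05 log2 units, did so under the rescalings. Leaving out a replicate was not possible with 1 value per condition, and depth limits Npas2 most.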

Other observations

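Genes of light and neural input to the retinal clock varied in both directions. The 14 found had median log2 changes of -0.01, 0.08 and 0.00 against the control by time after light, with 5, 10 and 6 of 14 above 0 (54.1%, 51.3% and 50.7% of all tested genes). From 3 h to 24 h, 11 of 14 were above 0 (47.3% of all tested genes), and from 24 h to 7 days 2 of 14 were (48.5%). The 14 include Opn5, Adcyap1, Mtnr1a and Mtnr1b, which were below the filter, whereas the shares cover only genes that passed it. Mtnr1b was at 0 FPKM in every sample. None of the 10 tested was past 1 log2 unit in any comparison. Opn4, the melanopsin of light-sensing ganglion cells, measured 2.04 FPKM without light, then 1.38 (3 h), 2.23 (24 h) and 2.22 FPKM (7 days). Aanat, the melatonin pathway enzyme made rhythmically in photoreceptors, was at 1.45, 0.752, 1.18 and 1.16 FPKM, and Drd4, a dopamine receptor of photoreceptors with a known daily rhythm, at 84.02, 67.7, 76.8 and 65.1. For Opn4 and Aanat, the counting intervals of the 24 h and 7-day ratios to the control included 1. Their 3 h intervals, 0.493 to 0.931 and 0.309 to 0.872, did not. Adcy1, an adenylyl cyclase that is also rhythmic in photoreceptors, was at 23.6, 32.9, 36.1 and 20.6 FPKM. Crem, a cAMP-responsive factor, was at 5.13, 7.40, 7.44 and 5.85 FPKM. Sik1, a kinase that limits the clock's response to light, was at 7.89 FPKM in the control and 11.1 at 3 h.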
